A study of Arabidopsis thaliana with 24 samples.

Results

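Red light lowers many transcripts that are abundant in dark-grown Arabidopsis thaliana seedlings, and the probe sets described here are those whose lowering was in part still seen in seedlings without phytochromes A and B. A probe set is a group of short oligonucleotides for 1 transcript or a few. It became a member if its mean log2 signal in wild type was lower by at least 0.8 after red light, if its dark wild type mean log2 signal was at least 7.6, and if all 3 red wild type arrays lay below all 3 dark ones, which 10.7% of the probe sets tested below did. The phyAphyB change, from group means, also had to reach at least 40% of the wild type change in the same direction. Of 22746 probe sets without the manufacturer's controls, 120 met the wild type criteria. The phyAphyB criterion was not met by 69 of them, 6 that met it were left out by name, and 45 remained as members. Wild type and phyAphyB arrays chose these members, so their values on those arrays are a description without a test. Arrays of the phyA and phyB single mutants took no part in the choice, and all contrasts tested below are between them. The spread in those tests was estimated over all 24 arrays, wild type and phyAphyB included.

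The study profiled whole seedlings, with root, hypocotyl and cotyledon together, at 4 days of age. All had grown in darkness, and each genotype was sampled in the dark and after 1 h of continuous red light at 680 nm and 8 µmol per square metre per second. The genotypes were wild type, a phyA mutant, a phyB mutant and a phyAphyB double mutant, with 3 biological replicates in each of the 8 groups, 24 arrays in all. The labels name neither the mutant alleles nor the strain they were made in. Of the members, 19 were paired with 1 gene, 1 with several genes and 25 with no gene in the probe table used, and only 2 of the 19 carry a symbol besides their locus name. No probe set was paired with PHYA or PHYB, so genotype labels were not checked through the mutated genes.

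Phytochromes are red and far-red light receptors. Light turns them into an active form that enters the nucleus, where it leads to the removal of phytochrome-interacting factors, bHLH transcription factors that keep growth genes active in darkness. Phytochrome A is the abundant form of dark-grown seedlings and is degraded in light, phytochrome B is the main stable red light receptor, and the double mutant still has phytochromes C, D and E.

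Median signals of the arrays ranged from 169.8 to 195.1, and arrays correlated with their group at 0.954 to 0.981 on average. The manufacturer's probe set for 25S ribosomal RNA stood at 10507.9 and 13573.9 for dark phyA (replicates 2 and 3), while the other 22 arrays read 46.8 to 450. The ratio of 3′ to 5′ GAPDH control signals, a measure of RNA integrity, ran from 1.28 to 2.65. Both extremes were dark phyB arrays, replicate 1 the lowest and replicate 2 the highest. The part of these values in the results was not tested. The members' phyA median and correlation, and some named changes, are also given without the 2 dark phyA arrays of high 25S signal. That leaves 1 dark phyA array, so it is not a replicated check. Of the shoot and etiolation markers with a named probe set, LHCB4.1, LHCB4.2, RCA and PORB exceeded the array's 40th percentile on all 24 arrays, while the root hair genes EXPA7 and EXPA18 did so on 1 and 10 arrays. In whole seedlings, less RNA per cell and fewer cells of a type cannot be told apart.

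The members covered a wide range of levels. Their mean signal in dark wild type ran from 200.1 to 5636.4 with a median of 724.7, and in red-lit wild type from 87 to 3109.9 with a median of 327.8. The wild type change lay between -2.64 and -0.81 on the log2 scale with a median of -1.02. In phyAphyB it lay between -1.56 and -0.35 with a median of -0.70, against -0.003 and -0.01 over all 15085 probe sets tested. The share of the wild type change seen in phyAphyB ran from 40.2% to 126.4% with a median of 59.2%. It was 50% or more for 28 members and 80% or more for 8, and in 43 of 45 members the wild type change was the greater of the 2. On the phyAphyB arrays the 3 red values lay below the 3 dark values in 42 of 45 members, against 6% of all probe sets tested. That contrast is the one the members were chosen on, so nothing is read from the count. The exceptions were AT5G67390, AT5G50335 and AT1G23050.

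**Figure D1:**
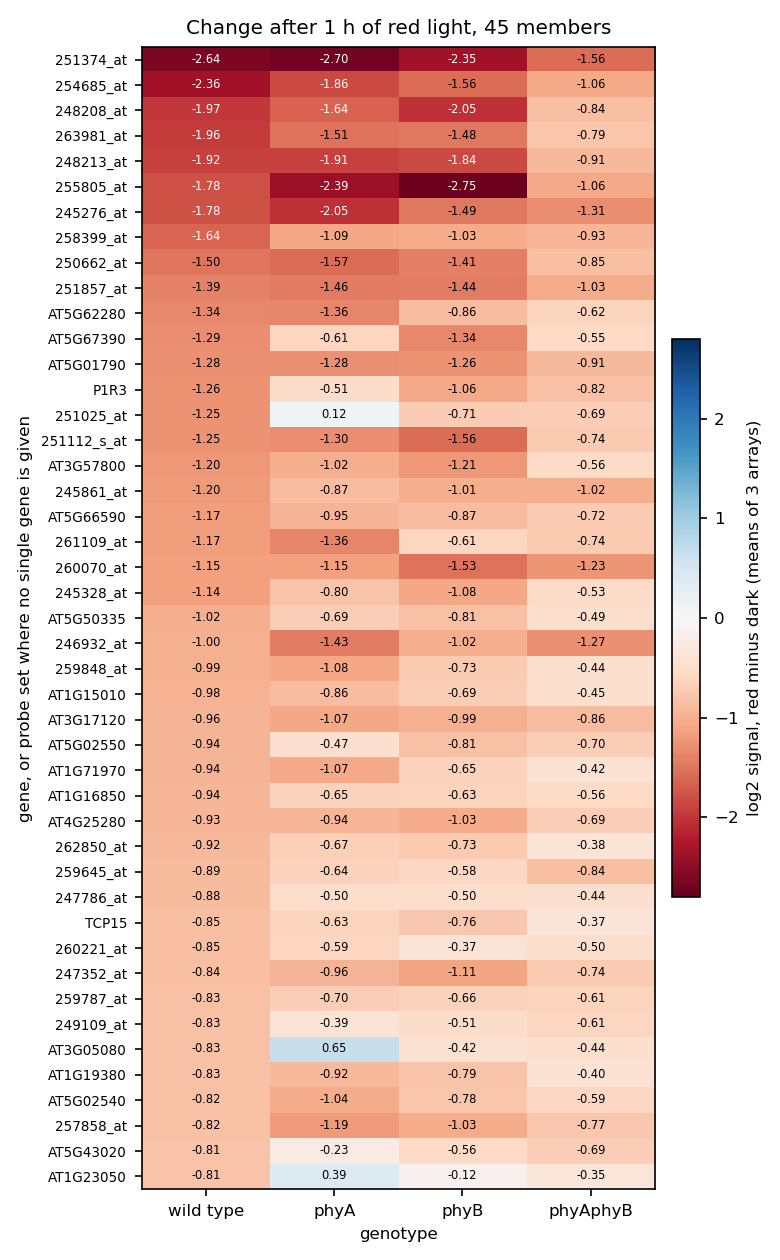
Log2 signal in red light minus darkness (difference of the means of 3 arrays) for the 45 members, 1 row each, in the 4 genotypes, ordered by the wild type change. The wild type column runs from -2.64 to -0.81, all phyAphyB values lie between -1.56 and -0.35, and positive values occur for 3 members in the phyA column.

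Each threshold separated members from close neighbours. The member just inside the wild type threshold was AT1G23050 at -0.81, and AT4G22190 lay just outside at -0.79. For the dark level the nearest were probe set 246932_at at 7.63 and 252129_at at 7.53. For the retained share they were 263981_at at 40.2% and AT4G25260 at 39.5%. The smallest gap between the dark and red wild type arrays among members was 0.27 log2 units, for AT5G43020, and for 250657_at just outside it was -0.04, an overlap.

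Most members were also lower after red light in each single mutant, on arrays that had not chosen them. In phyA, 34 of 45 fell (limma, Benjamini-Hochberg adjusted p under 0.05), and in phyB 38 of 45 fell. Over all probe sets tested, 1.93% fell in phyA and 2.17% in phyB, and 4.34% and 5.75% were called in either direction. limma called 0 of the 45 higher in either mutant, and 40 members in phyA and 43 in phyB had an unadjusted p under 0.05, against 17.3% and 16.4% of all. The phyA value was positive for 3 of the 45. Without the 2 dark phyA arrays of high 25S signal, 1 dark phyA array was left, and no phyA count is given from that fit. From the 2 groups of each mutant alone, the counts were 28 in phyA and 35 in phyB, against 91 and 260 of all 15085 probe sets tested. The 69 probe sets that met the wild type criteria but were not kept in phyAphyB fell in phyA in 25 cases and in phyB in 45, and this difference between the lists was not tested.

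The size of the change was close to that of wild type in many members. The median log2 change over the 45 members was -0.96 in phyA and -0.99 in phyB, against 0.001 and -0.03 over all probe sets tested. Without the 2 dark phyA arrays of high 25S signal the phyA median was -0.87, with 1 dark phyA array left. For the 69 not kept the median over all arrays was -0.49 in phyA and -0.70 in phyB, at a wild type median of -0.96. The 3 red arrays lay below the 3 dark arrays in 38 members in phyA and in 40 in phyB, against 9.59% and 11.8% of all probe sets tested. The phyA change went further than the phyAphyB change in 35 members, the phyB change in 36, and both in 32. The phyAphyB arrays took part in the choice of members, so these counts are a description. Across the 45 members, phyA and phyB changes correlated with Pearson's r = 0.82, as a description of probe sets that share these arrays, and across all tested with r = 0.43. Without the 2 dark phyA arrays of high 25S signal the members' r was 0.79, again with 1 dark phyA array left.

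**Figure D2:**
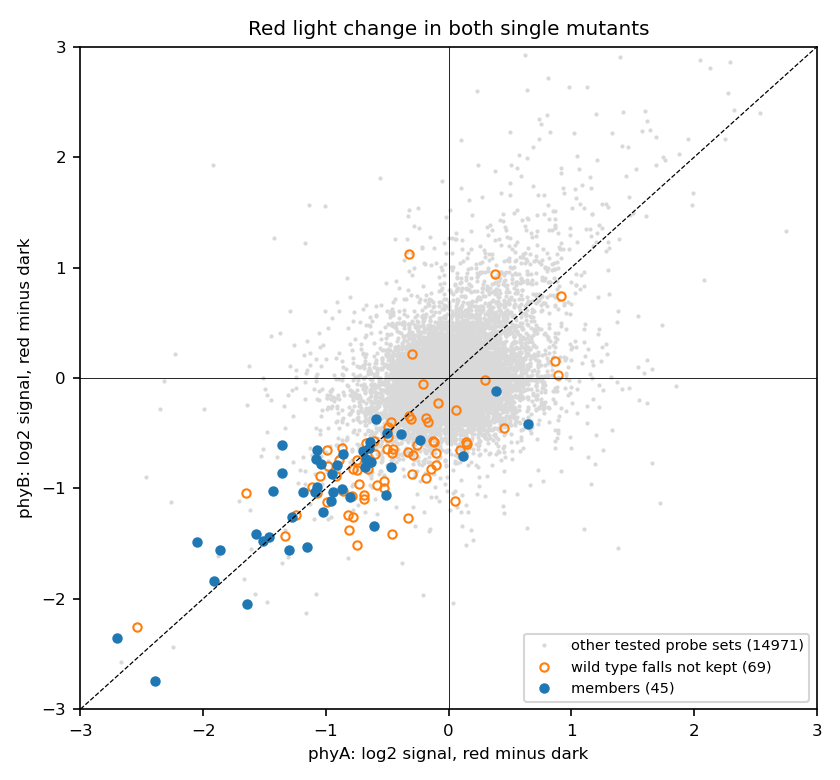
Log2 signal in red light minus darkness in phyA (horizontal) and phyB (vertical) for each tested probe set, with 45 members filled, 69 wild type falls not kept in phyAphyB open, and the other 14971 in grey. The dashed line marks equal change, members run from near 0 to below -2 along it, and 17 grey points lie beyond the axes.

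The median member level on single arrays is given as a description, since wild type and phyAphyB arrays chose the members. In darkness the median log2 signal of the members read 9.50, 9.63 and 9.53 in wild type and 9.81, 9.66 and 9.50 in phyAphyB. In red light it read 8.34, 8.32 and 8.32 in wild type and 8.92, 8.85 and 9.01 in phyAphyB. Dark values of these genotypes overlapped, and the 3 red phyAphyB values lay above the 3 of wild type. For phyA the dark arrays read 9.70, 9.80 and 9.55 and the red arrays 8.30, 8.66 and 8.60. For phyB they read 9.75, 9.30 and 9.78 in darkness and 8.23, 8.28 and 8.16 in red light. In each of the 4 genotypes the red arrays lay below the dark arrays, which the choice largely set for wild type and phyAphyB.

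**Figure D3:**
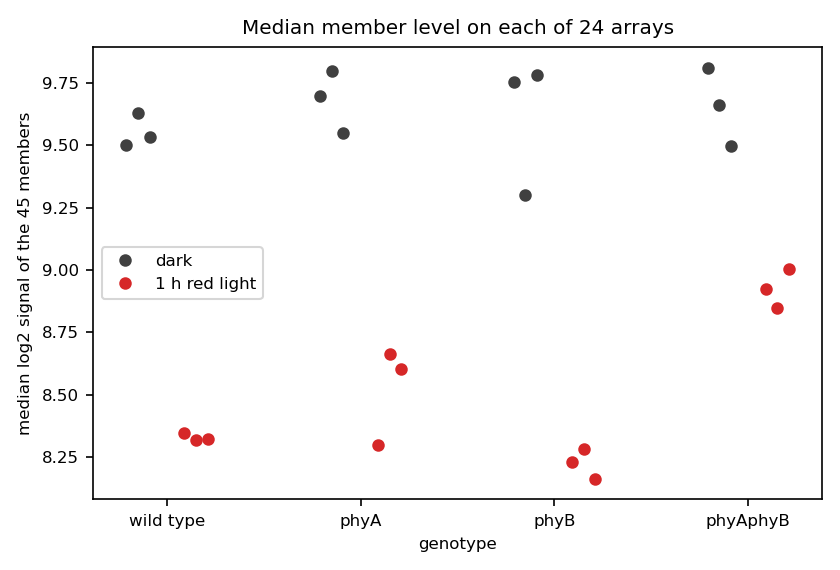
Median log2 signal of the 45 members on each of 24 arrays, by genotype, with dark arrays in grey and arrays after 1 h of red light in red. Dark arrays lie between 9.30 and 9.81, and the red phyAphyB arrays at 8.85 to 9.01 stand above the other red arrays, which lie between 8.16 and 8.66.

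Transcription factor genes were among the members. AT3G57800 encodes a bHLH protein. Its signal read 1010.3, 1466.6 and 1018.9 in dark wild type and 514.2, 504 and 476.5 in red light. In phyA it read 1091, 1317.9 and 1233.8 against 678.8, 534.5 and 589.2, and in phyB 1348.3, 1207.5 and 1260.2 against 576.8, 573.7 and 497.7. Dark and red arrays did not overlap in any of these genotypes. The gene fell in both, with a log2 change of -1.02 ± 0.13 (SE, n = 3 per group) in phyA (limma adjusted p = 1.8e-05) and of -1.21 ± 0.13 in phyB (adjusted p = 6.12e-07). In phyAphyB the dark arrays read 1179.3, 1449.8 and 1110.5 and the red arrays 880.9, 846.9 and 801, again without overlap, a change of -0.56 that is 46.2% of the wild type value of -1.20.

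TCP15, a TCP-family factor that regulates cell proliferation and growth, had smaller changes. It read 1055.7, 888.7 and 846.9 in dark wild type and 454.1, 609.4 and 489.2 in red light. In phyA the red arrays read 494.5, 414 and 817.7 and the dark arrays 938.6, 790.9 and 837.8, so that red replicate 3 lay among the dark values. The phyA change was -0.63 ± 0.19 (limma adjusted p = 0.062), and -0.92 without that array (adjusted p = 0.0024). In phyB TCP15 fell by 0.76 ± 0.19 (limma adjusted p = 0.016). That call was lost when dark phyB replicate 1 was left out (-0.58, adjusted p = 0.11), and likewise for red phyB replicate 3 (-0.63, adjusted p = 0.11). In phyAphyB the change was -0.37, from a mean of 980.2 to 754.8.

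Genes for secreted or membrane proteins were not all called in the single mutants, and no contrast between genes was run. AT5G66590, of the CAP superfamily of secreted pathogenesis-related proteins, read 1252.8, 1182.5 and 1220.9 in dark wild type against 526.1, 612.8 and 488.2 in red light. It fell by 0.95 ± 0.14 in phyA (limma adjusted p = 0.0001) and by 0.87 ± 0.14 in phyB (adjusted p = 0.00016). In phyAphyB it read 1900.6, 1753 and 2080.2 in darkness and 1464.6, 1004.7 and 1052.2 in red light, higher than wild type in both. AT5G43020, for a leucine-rich repeat receptor kinase, passed in neither single mutant. Its change was -0.23 ± 0.26 in phyA and -0.56 ± 0.26 in phyB (limma adjusted p = 0.72 and 0.27), against -0.70 in phyAphyB and -0.81 in wild type. Without dark phyB replicate 1 the phyB change passed at -0.88 (adjusted p = 0.041).

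AT1G23050, for a hydroxyproline-rich glycoprotein, also passed in neither. Its dark wild type arrays read 397.2, 528.7 and 604, above every dark array of phyA (304.3, 189.6 and 225.4) and of phyB (179.9, 268.6 and 237.4). Red-lit phyA read 268.1, 269 and 402.9 and red-lit phyB 214.8, 225.4 and 182.8, so dark and red arrays overlapped in both. The changes were 0.39 ± 0.21 and -0.12 ± 0.21 (limma adjusted p = 0.37 and 0.87). In phyAphyB the mean was 406.2 in darkness and 322.6 in red light, with overlap.

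AT5G02540 and AT4G25280 fell in both single mutants. AT5G02540 encodes a short-chain dehydrogenase of the Rossmann-fold class. Its dark arrays read 1482.1, 1400.2 and 1582 in wild type, 1756, 1236.8 and 1265.1 in phyA, 929.8, 893.6 and 1040 in phyB, and 1798.4, 1668.9 and 1310.1 in phyAphyB. The matching red arrays read 764.2, 889.7 and 868.7 in wild type, 808.8, 773.4 and 509.7 in phyA, 494.4, 573.7 and 604.6 in phyB, and 937.7, 1097.2 and 1126.3 in phyAphyB. The dark phyB arrays were the lowest of the 4 dark groups, and red lay below dark in every genotype. AT5G02540 fell by 1.04 ± 0.16 in phyA (limma adjusted p = 0.00016) and by 0.78 ± 0.16 in phyB (adjusted p = 0.0021). AT4G25280, for a P-loop nucleotide-binding protein, fell by 0.94 ± 0.13 in phyA and by 1.03 ± 0.13 in phyB (limma adjusted p = 4.41e-05 and 5.33e-06), and its phyAphyB change of -0.69 was 73.9% of that of wild type.

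AT5G02550, of no stated function, lies next to AT5G02540 in the TAIR10.1 gene order, with 0 genes between them, and AT5G02580, which was left out by name, follows after 2 further genes. AT5G02550 read 497.6, 587.5 and 497.6 in dark wild type and 228.3, 283.8 and 314.9 in red light. It read 496.1, 456.3 and 413.5 in dark phyA against 311.1, 324.1 and 352.1 in red light, which do not overlap. Its change was -0.47 ± 0.15 in phyA (limma adjusted p = 0.084), and it fell by 0.81 ± 0.15 in phyB (adjusted p = 0.0008), where the arrays went from 287.4, 399.7 and 358.2 to 210.4, 209 and 172.5. Its phyAphyB change of -0.70 and that of AT5G02540 of -0.59 were 74% and 71.2% of the wild type values. Of the 19 named members 8 lie on chromosome 5, 6 on chromosome 1, 4 on chromosome 3 and 1 on chromosome 4.

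**Figure D4:**
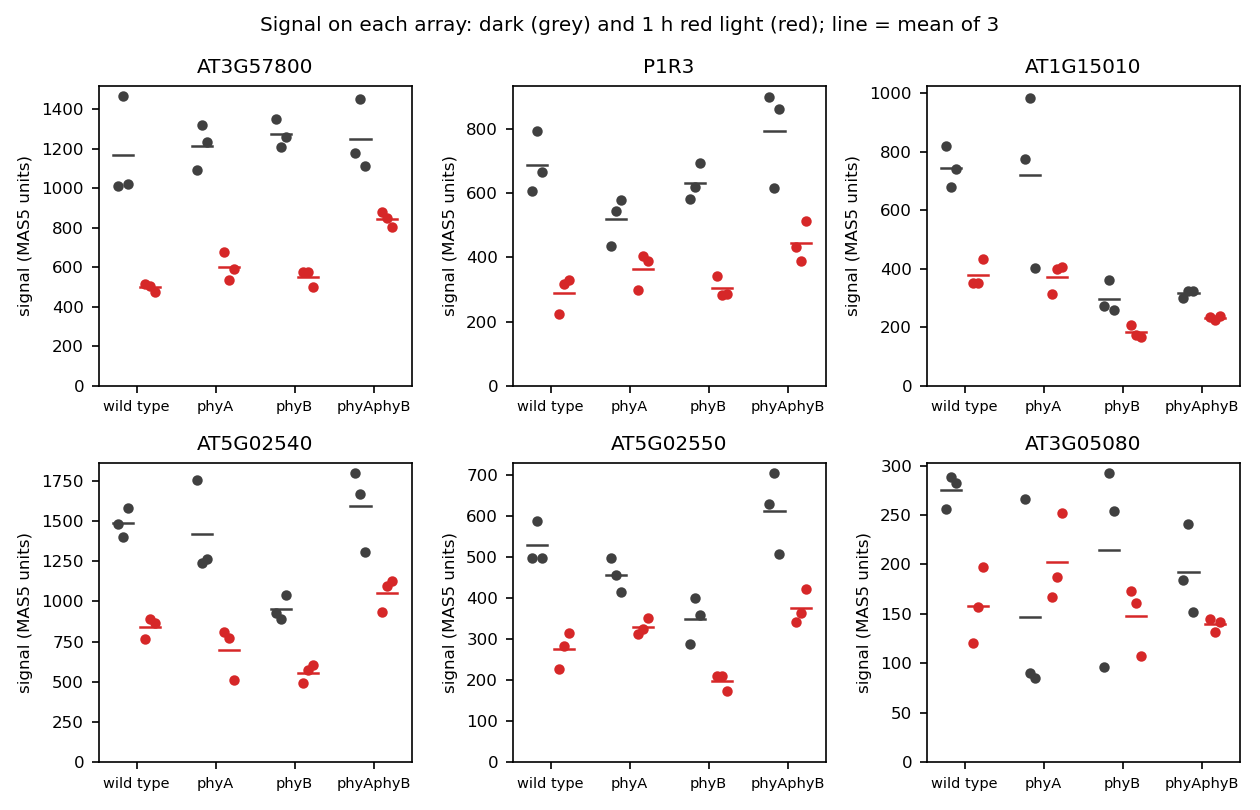
Signal in MAS5 units on each array for 6 members, with dark arrays in grey, arrays after 1 h of red light in red, and a line at the mean of 3 arrays. AT1G15010 stands at 260.1 to 363.3 in dark phyB against 678.1 to 820.2 in dark wild type, and 2 of the 3 dark phyA arrays of AT3G05080 lie at 90 or below.

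AT1G16850, known as a gene induced by water stress, and AT1G15010, of no stated function, differed in level between phyA and phyB, as tested further on. AT1G15010 read 820.2, 678.1 and 740.6 in dark wild type and 776.7, 984.2 and 402.1 in dark phyA. In dark phyB it read 272.3, 363.3 and 260.1, and in dark phyAphyB 301.3, 325.9 and 323.4, below every dark array of the other genotypes. Red arrays read 351.6, 352.3 and 433.3 in wild type, 315.1, 399.1 and 407.2 in phyA, 207, 174.4 and 168.6 in phyB, and 234.6, 223.7 and 238.3 in phyAphyB. It fell by 0.86 ± 0.21 in phyA (limma adjusted p = 0.015). That call was lost without dark phyA replicate 1 (-0.76, adjusted p = 0.052), dark phyA replicate 2 (-0.59, adjusted p = 0.14) or red phyA replicate 1 (-0.74, adjusted p = 0.081). The call was also lost from the 2 phyA groups alone (adjusted p = 0.21) and with noisy arrays weighted less (-0.66, adjusted p = 0.072). In phyB its change of -0.69 ± 0.21 missed the threshold (limma adjusted p = 0.051). With the same value it passed without the 2 dark phyA arrays of high 25S signal (adjusted p = 0.0025) and from the 2 phyB groups alone (adjusted p = 0.043).

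AT1G16850 passed in neither single mutant. It read 540.3, 890.7 and 748.5 in dark phyA and 559.6, 528.9 and 314 in red light, with overlap, and 267.3, 467.3 and 403.4 against 228.4, 247 and 238.9 in phyB, without. The changes were -0.65 ± 0.22 and -0.63 ± 0.22 (limma adjusted p = 0.099 and 0.10). They passed without dark phyA replicate 1 (-0.85, adjusted p = 0.029) and without dark phyB replicate 1 (-0.87, adjusted p = 0.021). In wild type the mean went from 634 to 332.6 and in phyAphyB from 594.4 to 406.4.

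The other 9 genes, P1R3 among them, are given without a stated role. P1R3 read 605, 791.9 and 664.7 in dark wild type and 222.3, 316.7 and 329.8 in red light. In phyB it fell by 1.06 ± 0.17 (limma adjusted p = 0.00018), from 582.9, 618.9 and 692.6 to 341.7, 281.8 and 286.9. In phyA it read 433.7, 544.9 and 578 against 297.7, 405.4 and 388.7, without overlap, and the change of -0.51 ± 0.17 did not pass (adjusted p = 0.099). It passed without dark phyA replicate 1 (-0.64, adjusted p = 0.043). AT5G67390 had the same order, with a phyB fall of 1.34 ± 0.26 (limma adjusted p = 0.0013) and a phyA change of -0.61 ± 0.26 that did not pass (adjusted p = 0.22).

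Falls were called in both mutants for AT5G62280, AT5G01790, AT3G17120, AT1G71970 and AT1G19380. AT5G01790 had nearly the same value in the 3 genotypes, -1.28 in wild type, -1.28 ± 0.21 in phyA and -1.26 ± 0.21 in phyB, and -0.91 in phyAphyB. AT3G17120 changed by -1.07 ± 0.18 in phyA, -0.99 ± 0.18 in phyB and -0.86 in phyAphyB, which is 89.5% of the wild type value of -0.96. For AT5G62280 and AT1G71970 the phyA falls of 1.36 ± 0.17 and 1.07 ± 0.13 stood beside phyB falls of 0.86 ± 0.17 and 0.65 ± 0.13. AT1G19380 fell by 0.92 ± 0.18 in phyA and by 0.79 ± 0.18 in phyB, and its phyA call was lost from the 2 phyA groups alone (limma adjusted p = 0.072).

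AT5G50335 and AT3G05080 passed in neither. AT5G50335 read 97.7 on dark phyB replicate 1 against 376 and 343.4 on the other dark phyB arrays, and its phyB change was -0.81 ± 0.33 with that array and -1.44 without it (limma adjusted p = 0.20 and 0.00038). AT3G05080 read 265.7, 90 and 85.6 in dark phyA and 166.8, 187.1 and 252.3 in red-lit phyA. Replicate 1, the high value, is the dark phyA array without the high 25S signal. The phyA change was 0.65 ± 0.36 (limma adjusted p = 0.37), and 1.18 without dark replicate 1 (adjusted p = 0.032). Without dark replicates 2 and 3, which leaves 1 dark phyA array, it was -0.42. Its direction in phyA thus depended on which dark arrays were used.

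Of the 25 members without a gene name 22 fell in both single mutants, as did the 1 member paired with several genes. Over all probe sets tested, 1.93% fell in phyA and 2.17% in phyB, so the share that fell in both was no higher. The largest wild type change of all members belonged to 251374_at. It read 725.2, 708.4 and 740.4 in dark wild type and 156, 71.2 and 141.7 in red light. It read 1187.7, 679 and 662 in dark phyA against 135.5, 110.2 and 130 in red light. It fell, with a change of -2.70 ± 0.31 in phyA (limma adjusted p = 3.25e-06) and of -2.36 ± 0.31 in phyB (adjusted p = 1.15e-05). In phyAphyB it went from 416.6, 412.1 and 566.3 to 165.1, 202.5 and 112.4, a change of -1.56, again without overlap. The next largest wild type changes, of 254685_at, 248208_at and 263981_at, were -2.36, -1.97 and -1.96. These probe sets fell by 1.86, 1.64 and 1.51 in phyA and by 1.56, 2.05 and 1.48 in phyB, and changed by -1.06, -0.84 and -0.79 in phyAphyB.

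Not every bright probe set was called in both single mutants, and no contrast between probe sets was run. 250662_at fell by 1.57 ± 0.16 in phyA and by 1.41 ± 0.16 in phyB, from dark means of 3889.4 and 2659.6. 258399_at fell by 1.09 ± 0.19 and 1.03 ± 0.19. Its phyA change was -0.68 without the 2 dark phyA arrays of high 25S signal, with 1 dark phyA array left. The brightest, 260221_at, fell by 0.59 ± 0.16 in phyA (adjusted p = 0.03) and changed by -0.37 ± 0.16 in phyB (adjusted p = 0.23). Without both high-25S arrays, which leaves 1 dark phyA array, its phyA change was -0.32. Its phyA call was lost without dark phyA replicates 2 or 3 or red phyA replicates 1 or 3 (adjusted p = 0.11, 0.15, 0.063 and 0.12). That call was also lost without the intensity trend of the fit and from the 2 phyA groups alone (limma adjusted p = 0.056 and 0.096). Its phyB change passed without dark phyB replicate 1 (-0.56, adjusted p = 0.03). 247352_at fell in both, with changes of -0.96 ± 0.12 in phyA and -1.11 ± 0.12 in phyB, and kept 87.6% of its wild type change in phyAphyB.

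246932_at had a phyAphyB change of -1.27 that exceeded its wild type change of -1.005, and it fell by 1.43 ± 0.20 in phyA and by 1.02 ± 0.20 in phyB. 251025_at read 268.8, 163.5 and 212.9 in dark phyA and 249.5, 231.9 and 208.7 in red light, with overlap. Its phyA change was 0.12 ± 0.21 (limma adjusted p = 0.82), and -0.23 without dark phyA replicates 2 and 3 or -0.06 without replicate 2 alone. In phyB it fell by 0.71 ± 0.21 (adjusted p = 0.044), a call lost without dark phyB replicates 2 or 3 or red phyB replicates 2 or 3 (adjusted p from 0.058 to 0.30). That call was also lost with no probe set filtered out and from the phyB groups alone (limma adjusted p = 0.077 and 0.097). The remaining 16 members, not given singly, changed by -2.39 to -0.39 in phyA and by -2.75 to -0.50 in phyB. Of them 15 fell in both, against at most 1.93% of all probe sets tested. Without the 2 dark phyA arrays of high 25S signal, the phyA changes of these 15 rest on 1 dark phyA array.

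The single mutants were compared directly to learn whether the responses differed between them, a contrast in which equal effects of both mutations cancel. limma called none of the 45 members for a difference of response between phyA and phyB, against 0.537% of all probe sets tested, and 6 members had an unadjusted p under 0.05, against 11% of all, a share near the background. Among these were P1R3 (difference 0.55 ± 0.25), 251025_at (0.83 ± 0.30) and AT3G05080 (1.07 ± 0.51), less negative or positive in phyA. AT1G71970 (-0.42 ± 0.19) was more negative in phyA, as were 2 other members without a gene name (-0.75 ± 0.23 and -0.36 ± 0.16). The median difference was -0.02, with a median SE of 0.24, and 38 of 45 differences were under 0.5 in size. A missing call does not show that the responses were equal. With array weights, which count noisy arrays less, the differences of 251025_at and AT3G05080 passed (1.12 and 1.61, adjusted p = 0.03 for both). In that fit 448 of all 15085 probe sets tested passed.

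In the dark, 5 members differed in level between phyA and phyB, against 12.3% of all probe sets tested, and all 5 were higher in phyA, as were 6.51% of all. The members' share was thus near the background. AT1G15010 was higher by 1.19 ± 0.21 (limma adjusted p = 0.00032), 246932_at by 1.03 ± 0.20 (adjusted p = 0.00092) and AT1G16850 by 0.95 ± 0.22 (adjusted p = 0.005). 250662_at was higher by 0.57 ± 0.16 (adjusted p = 0.019) and AT5G02540 by 0.56 ± 0.16 (adjusted p = 0.021). For AT5G02540 the call depended on dark phyA replicate 1 (0.39 without it, adjusted p = 0.11) and on dark phyB replicates 1 and 2 (adjusted p = 0.053 and 0.079). From the 2 dark groups alone this call was lost too (limma adjusted p = 0.059). That of 250662_at was lost without dark phyA replicate 3 or dark phyB replicates 2 or 3 (adjusted p = 0.077, 0.13 and 0.058). Without both dark phyA arrays of high 25S signal, 1 dark phyA array was left, and the differences were 0.51 for 250662_at and 0.55 for AT1G16850.

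In red light, 5 members again differed, against 10.6% of all probe sets tested, and all were higher in phyA, as were 5.64% of all. This too is near the background. AT1G15010 was higher by 1.02 ± 0.21 (limma adjusted p = 0.0014), AT1G16850 by 0.93 ± 0.22 (adjusted p = 0.0058) and AT5G02550 by 0.74 ± 0.15 (adjusted p = 0.0014). 251025_at was higher by 0.65 ± 0.21 (adjusted p = 0.044) and 247352_at by 0.44 ± 0.12 (adjusted p = 0.012). The call of 247352_at was lost without red phyA replicates 1 or 2 (adjusted p = 0.053 and 0.075), and that of 251025_at without any 1 of 5 red arrays, all but red phyB replicate 1 (adjusted p up to 0.20). For 251025_at it was also lost with quantile normalization, with no probe set filtered out and from the compared groups alone (limma adjusted p = 0.058, 0.075 and 0.051). AT1G15010 and AT1G16850 were called in both light conditions.

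The members hold no gene of the 10 pathway lists, which go by gene symbol. This was largely set by the choice, since only 2 members carry a symbol and the listed genes IAA29 and FHL were among the 6 left out by name. Other light and growth genes are therefore given for comparison from the single mutants. Of 10 tested genes of auxin response, synthesis and transport, 3 fell in phyA and 4 in phyB, with medians of -0.12 in each. IAA20, an Aux/IAA repressor, fell in both, with changes of -0.65 ± 0.18 and -0.82 ± 0.18 (limma adjusted p = 0.034 and 0.0039). IAA29, another Aux/IAA gene, had the largest changes of the list (-2.67 and -2.57). GH3.3, for an auxin-conjugating enzyme, also fell in both (-0.75 and -0.83). WAG2, for a kinase that acts in auxin transport, fell in phyB (-1.06 ± 0.16), and its phyA value was 0.11 ± 0.16. Among 19 tested wall-loosening genes (expansins and xyloglucan endotransglucosylases) 2 fell in phyA and 3 in phyB, with medians of -0.14 and -0.17. EXPA9 (-0.78 and -0.96) and EXPB1 (-0.79 and -1.07) fell in both, and XTH16 fell in phyB (-0.90) beside -0.28 in phyA.

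Of 3 shade-related genes all fell in phyA (median -0.84), while in phyB 1 fell and 1 rose (median -0.56). HAT2, a shade-induced homeobox gene, fell in both (-0.87 and -0.63). FHL, which acts in phytochrome A nuclear import, fell in phyA (-0.84) beside -0.56 in phyB. BIM1, a bHLH gene of brassinosteroid signalling, fell in phyA (-0.62 ± 0.13) and rose in phyB (0.52 ± 0.13), with limma adjusted p = 0.0063 and 0.018. The brassinosteroid list, which does not hold BIM1, had 1 tested gene, EXO. EXO promotes growth and fell in both (-2.54 and -2.26). The 1 clock gene, GI, rose by 0.88 and 1.12, and the 1 light signalling gene, the bZIP factor HYH, rose by 3.11 in phyB beside 2.16 in phyA (limma adjusted p = 0.053). Of 7 chlorophyll synthesis genes PORB fell in phyB (-0.57), and of 6 touch and handling genes CML42, a calmodulin-like gene, fell in phyB (-0.51). The medians of these lists were -0.07 and -0.40 in phyA and -0.08 and -0.37 in phyB. None of 3 gibberellin genes and 1 ethylene gene passed in either mutant (medians -0.19 and -0.11 in phyA, 0.25 and 0.14 in phyB).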

How the data were processed

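The deposited values are intensity values, 1 MAS5 signal per probe set and array, per the submitters' processing notes, with no version or build named. The mean signal trimmed by 2% at each end was 500.038 to 500.044 on every array, so the authors' scaling was kept. Scaling of this kind assumes an equal mean signal in all samples, and signals of dim probe sets are noisy on a log scale. The number of arrays limits the precision.

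Control probe sets (64) were left out. Probe sets above the array's 40th percentile on at least 3 arrays were tested (15085, all 45 members among them). Log2 signals were fitted by group with limma 3.58.1 in R 4.3.3 (lmFit, eBayes with intensity trend, all 24 arrays), two-sided, with Benjamini-Hochberg adjustment over all tested probe sets, called at an adjusted p under 0.05. 4 zeros in the table, none among tested probe sets, were set to 0.05 before the log. The fit was tested on simulated data. Of 22746 probe sets, 13513 had 1 gene, 503 several and 8730 none, and symbols were updated through TAIR10.1 gene identifiers with 77 unmatched. Samples were grouped by their titles.

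Members and lists were chosen with earlier results of these data known. Every member with 1 gene is named. Other members are named by probe set if among the 4 brightest or the 4 largest wild type changes, or if called in a phyA against phyB contrast. Up to 4 called genes of each list are named. No promoter motifs were searched.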

Additional observations from a re-analysis of the deposited data

Results flagged for a closer look

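Among the named pathway genes, none of them members, the red light response of WAG2 and of BIM1 differed between phyA and phyB in a test of the difference itself. For WAG2 the response in phyA minus that in phyB was 1.17 ± 0.23 on the log2 scale (limma adjusted p = 0.015). For BIM1 it was -1.14 ± 0.19 (limma adjusted p = 0.0053).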

How the results depend on the processing

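Each fit was repeated after quantile normalization, without the filter, at the 60th percentile, with 36.5 signal units added before the log, without the intensity trend, on the compared groups alone, with the replicate block, with array weights, without 1 phyA or phyB array, and without both dark phyA arrays of high 25S signal. Each response had 15 such fits. Of 45 members, 24 kept their phyA call and 31 their phyB call, 23 in both, in every fit that tested them. At the 60th percentile 42 members were tested. The fit without both dark phyA arrays of high 25S signal, with 1 dark phyA array left, is among the 15. The compared groups alone gave 28 in phyA and 35 in phyB, against 91 and 260 of all 15085 probe sets tested. Leaving out 1 array gave 30 to 34 members called lower in phyA, 32 to 37 in phyB, 0 for the difference of responses, 4 to 7 for the dark and 3 to 7 for the red level difference. Array weights gave 2 members for the difference of responses, against 448 of all 15085 probe sets tested. For the dark level they gave 11 members, against 3781 of all. The causes were not tested. Among the 29 members named singly, changes of 3 that had not passed the test turned sign. The other 16 were not followed in this way. In phyA 251025_at changed by -0.23 without both dark phyA arrays, and by -0.06 (without dark phyA replicate 2) to 0.298 without 1 array. AT3G05080 went from 0.65 to -0.42 in phyA without both. AT1G23050 in phyB ran from -0.29 to 0.001 without 1 array, the latter without dark phyB replicate 2. The number of members was 28 at a retained share of 50%, 56 at 30%, 45 with quantile normalization (43 shared), 37 with the pseudocount, 43 with group medians, and 37 to 51 (34 to 43 shared) without 1 wild type or phyAphyB array. Over all probe sets tested, the counts ran from 91 to 585 against 291 falls in phyA and from 203 to 697 against 327 in phyB. They ran from 16 to 448 against 81 for the difference of responses. For the dark level they ran from 987 to 3781 against 1862, and for the red level from 1193 to 1913 against 1598. Same-numbered arrays correlated at -0.26 to 0.28 after group means were removed, with 17 of 84 pairs over 0.1 and 8 of 24 arrays closest to their own number. The titles give only a number, so whether such arrays were handled together is not known. The main fit did not pair them. The replicate block gave 33 members in phyA and 38 in phyB, against 266 and 319 of all 15085 probe sets tested. It gave 0 for the difference of responses, against 62 of all. Each level difference had 5 members, against 1800 of all in the dark and 1580 in red light.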
